A study of Mus musculus with 24 samples.

Results

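The sites described here are binding sites of the nuclear receptor Rev-erbα in mouse brain that lie away from promoters and were listed in brain but in neither of the other tissues compared. They are 4940 of the 10687 peaks of the brain list (46.2%). They were chosen by the deposited peak and border calls and by position: a member overlaps no eWAT peak by even 1 bp, its centre lies more than 1 kb from every protein-coding transcription start, and no liver ChIP-exo border lies within 100 bp of its centre. Of the other brain peaks, 706 overlapped an eWAT peak, 3896 lay within 1 kb of a start without such overlap, and 1145 were distal with a liver border.

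The brain list came from Rev-erbα ChIP-seq of the ventral tegmental area, a midbrain region that holds dopamine neurons among many other cells (1 library). It was set against the same receptor mapped by ChIP-seq in eWAT, the epididymal white fat depot (2 libraries), and by ChIP-exo in liver (2 libraries), an assay whose exonucleases cut DNA back to the edge of the bound protein. All 5 libraries were from C57BL/6 animals, wild type in genotype, taken at zeitgeber time 10, 10 h after lights on, and the other 19 samples of the series, knockouts and mutants among them, were not analysed here. Each tissue had 1 list, so no value has a spread between animals, sequencing depth is unknown, and every p-value describes sites in these lists, which are not independent of their neighbours. A site missing from a list was not called there, which at unknown depth does not show that it was unbound.

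Rev-erbα, encoded by Nr1d1, is a heme-binding repressor of the circadian clock. It recognises the receptor hexamer AGGTCA preceded by an A/T-rich stretch (the RORE, a site that activating ROR receptors also use) or a direct repeat of the hexamer (RevDR2, bound by a pair of receptors), and it recruits the NCoR/HDAC3 corepressor complex. It can also be held at chromatin by other DNA-bound factors, without contact with its own element. In brain the receptor is present in neurons and in glia, whose enhancers carry motifs of NFI, SOX, RFX and POU factors.

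The first sequences shown are the 10 highest-scoring members with a RORE or RevDR2 within 50 bp of the centre, since these are the members with the receptor's own element. They are named by the gene with the nearest start, come from the mm9 (NCBIM37) genome, read 5′ to 3′ on the strand given, and have the element in capitals.
Rpl36-ps3, chr12:12834793-12834831, minus strand: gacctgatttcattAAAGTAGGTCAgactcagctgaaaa
Slc20a1, chr2:129069634-129069672, plus strand: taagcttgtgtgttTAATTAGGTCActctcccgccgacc
Wisp1, chr15:66746586-66746627, minus strand: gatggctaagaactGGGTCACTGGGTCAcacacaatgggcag
4632415K11Rik, chr8:122314735-122314773, plus strand: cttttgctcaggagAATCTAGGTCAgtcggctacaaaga
Mras, chr9:99298094-99298132, plus strand: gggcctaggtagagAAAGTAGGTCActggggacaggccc
E030025P04Rik, chr11:109001195-109001233, minus strand: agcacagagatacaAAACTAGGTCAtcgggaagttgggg
Elovl4, chr9:83580416-83580454, plus strand: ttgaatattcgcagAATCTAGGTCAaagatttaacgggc
1700016C15Rik, chr1:179525703-179525741, minus strand: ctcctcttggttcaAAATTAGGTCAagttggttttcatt
Il1b, chr2:129245359-129245397, minus strand: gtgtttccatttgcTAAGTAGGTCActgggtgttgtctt
Lrig2, chr3:104345349-104345390, minus strand: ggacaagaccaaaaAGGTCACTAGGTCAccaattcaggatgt
Of these, 8 held a RORE and those nearest to Wisp1 and Lrig2 held a RevDR2. Their deposited scores ran from 40 (Lrig2, rank 1904 of the brain list) to 76.4 (Rpl36-ps3, rank 329). Those nearest to Wisp1, Mras and E030025P04Rik lay in an intron of that gene, and the other 7 were intergenic. Wisp1 encodes a secreted matricellular protein, Mras a small GTPase, Slc20a1 a phosphate transporter, Elovl4 an enzyme that elongates very long fatty acids, Il1b the cytokine interleukin 1β and Lrig2 a membrane protein of growth factor signalling. The distances to the nearest start ran from 3002 bp (Mras) to 134194 bp (1700016C15Rik).

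The next sequences carry the palindrome of nuclear factor I (NFI), a family of developmental transcription factors active in astrocytes and neurons, because its core was the most frequent motif at the members. They are the 5 highest-scoring members with the palindrome, in capitals, and were chosen after motif shares were seen. The palindrome was at 48 members and the core TTGGCA at 581, and none of these 5 held the core within 50 bp of the centre.
Dennd2a, chr6:39478792-39478828, plus strand: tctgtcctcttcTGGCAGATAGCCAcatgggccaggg
Xirp1, chr9:119920349-119920385, plus strand: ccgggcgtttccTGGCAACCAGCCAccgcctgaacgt
Cacna2d4, chr6:119187809-119187845, plus strand: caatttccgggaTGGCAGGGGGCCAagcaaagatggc
Slc22a12, chr19:6548574-6548610, plus strand: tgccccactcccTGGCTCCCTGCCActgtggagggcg
Gnai1, chr5:17988648-17988684, plus strand: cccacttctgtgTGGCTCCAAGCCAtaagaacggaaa
These scored from 29.1 (Gnai1, rank 4341) to 61.8 (Dennd2a, rank 565). The sites nearest to Dennd2a and to Cacna2d4, a calcium channel subunit gene, were intronic. The site nearest to Slc22a12, a urate transporter gene, also held a RORE.

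Last come the whole 150 bp peaks of the 2 highest-scoring members. They lacked the receptor's element within 50 bp of the centre, as did most members in every range of score. Capitals mark any match to the receptor hexamer AGGTCA, the NFI core TTGGCA, the E-box CACGTG, the D-box, the SOX motif CCATTGT or the AP-1 motif, on either strand.
Commd8, chr5:72460178-72460327, plus strand: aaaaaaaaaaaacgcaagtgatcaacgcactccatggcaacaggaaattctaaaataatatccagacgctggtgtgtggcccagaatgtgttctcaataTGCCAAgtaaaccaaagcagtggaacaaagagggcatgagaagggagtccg
Lpcat2, chr8:95374252-95374401, plus strand: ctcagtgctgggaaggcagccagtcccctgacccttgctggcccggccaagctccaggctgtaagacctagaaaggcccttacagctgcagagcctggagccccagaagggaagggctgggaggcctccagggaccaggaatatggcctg
The first (score 167.3, rank 36) held 1 NFI core, read as TGCCAA on the plus strand, and the second (score 163.6, rank 39) held none of these motifs. The first lies in an intron of Gabrb1, which encodes a GABA-A receptor subunit, 94080 bp from the start of Commd8. The second lies in an intron of Mmp2, a matrix metalloproteinase gene, 4922 bp from the start of Lpcat2.

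Members had low scores for the most part and were mostly intronic or intergenic. Their scores ran from 14.5 to 167.3 with a median of 25.5, and 229 of 4940 (4.64%) fell in the top decile of the brain list, against 157 of 555 distal sites shared with eWAT (28.3%, median score 36.4) and 165 of 1145 distal sites with a liver border (14.4%, median 29.1). The whole brain list and the 1566 promoter sites found in brain alone also had a median of 25.5, and 4.21% of those promoter sites and 4.27% of eWAT-alone sites fell in the top decile of their own list. The sites shared with eWAT were taken with or without a liver border. All these scores are a description, since calling in the other tissues shaped the set. The centre lay in an intron of a protein-coding gene for 2606 members (52.8%), between genes for 2124 (43%) and in an exon for 210 (4.25%). The nearest start was a median of 22953 bp away (quartiles 7501 and 61182 bp), and 793 members (16.1%) lay more than 100000 bp from any start. Of the intronic members, 2280 (87.5%) had their host gene as the gene with the nearest start. Density ran from 0.27 members per Mb on chromosome X to 2.99 per Mb on chromosome 11, where all brain peaks were also few and many (120 and 890), and members were 37.5 and 40.9% of them.

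The members just inside the limits of the rule had median scores close to those of the sites just outside. Scores fell on multiples of 3.636, with a lowest of 4 such steps and a median of 7 among brain peaks. Members had a median of 7 steps too, and 4800 of the 10687 brain peaks scored 21.8 to 25.5. Medians therefore had little room to differ, and their closeness says little about the limits. The 102 members 1001 to 1200 bp from a start had a median score of 25.5, and the 96 excluded sites 801 to 1000 bp away had 23.65. The 74 members with a border 101 to 120 bp away and the 104 excluded sites with one 81 to 100 bp away both had 25.5. The 24 members whose start lay 150 to 249 bp from that of an eWAT peak had 23.65, and the 103 excluded sites at 50 to 149 bp had 25.5. In all, 1153 members (23.3%) had a border between 101 and 1000 bp from the centre. The share was 20.4% of eWAT-alone sites and 62.5% of promoter sites found in brain alone, sets that also had no border within 100 bp. The liver list held 245360 borders.

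**Figure D1:**
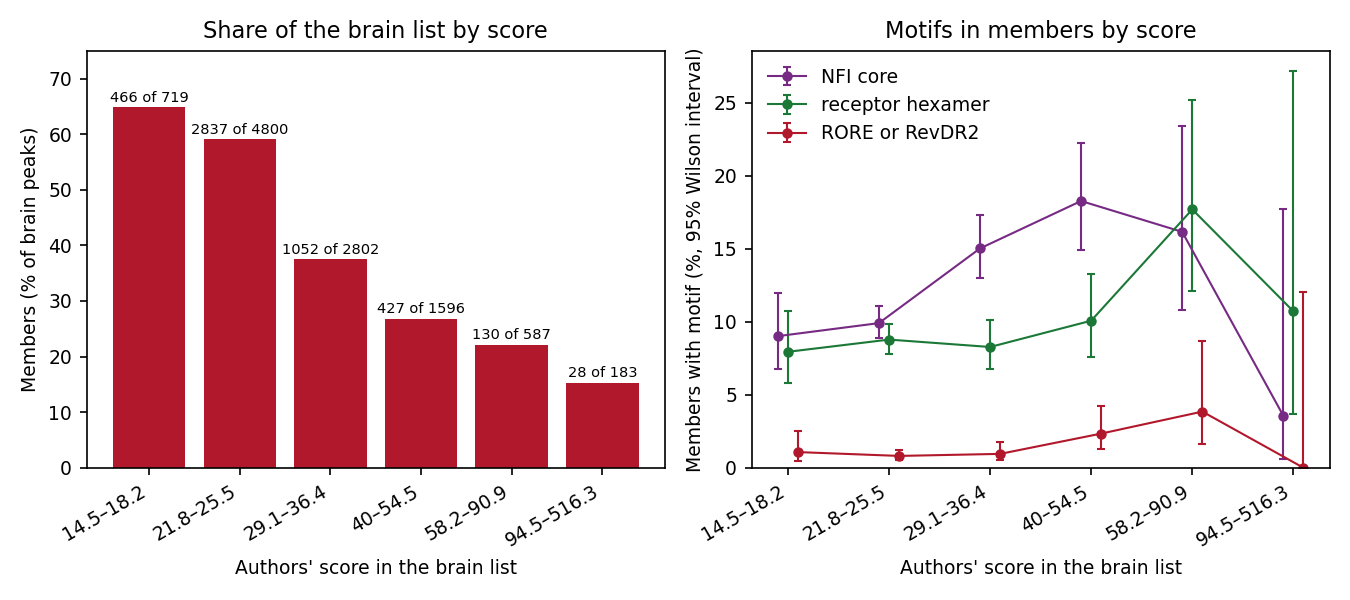
Left, members as a percentage of all brain peaks in 6 ranges of the authors' score, with the counts. Right, percentage of members with the NFI core, the receptor hexamer, or a RORE or RevDR2 within 50 bp of the centre, with 95% Wilson intervals. Members made up 64.8% of brain peaks scoring 14.5 to 18.2 and 15.3% of those scoring 94.5 or more, and the element was found in 0 of the 28 highest-scoring members.

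The element was present at few members and at fewer of their flanks. It was counted only where the sequence matched its consensus without a mismatch, so these shares depend on how strict the consensus is. A RORE or RevDR2 lay within 50 bp of the centre in 53 members (1.07%, 95% Wilson interval 0.821 to 1.4), against 2 (0.0405%) in the same width 1000 bp to the left and 6 (0.121%) to the right. The difference from the left flank passed (53 members with it at the centre alone, 2 at the flank alone, exact McNemar test, two-sided, adjusted exact p = 1.15e-12). The share over all brain peaks was 1.05%. RORE accounted for 46 and RevDR2 for 7 of the 53. They included 27 intronic and 26 intergenic sites, 13 lay within 10 kb of a start, and 5 also held an NFI core. Their scores ran from 18.2 to 76.4 with a median of 25.5, which was also the median of members without the element. By score, the share was 1.07% (5 of 466) at 14.5 to 18.2, 0.811% (23 of 2837) at 21.8 to 25.5, 0.951% (10 of 1052) at 29.1 to 36.4, 2.34% (10 of 427) at 40 to 54.5 and 3.85% (5 of 130) at 58.2 to 90.9. Above 94.5 it was 0 of 28 members.

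Besides the receptor's own motifs, those of other factors were more frequent at the members' centres than beside them. Of the 27 motifs searched on both strands, 14 (51.9%) were more frequent at the centre than in the left flank and 0 (0%) less frequent at an adjusted p below 0.05, and none had an unadjusted p below 0.05 in the lower direction (exact McNemar test, adjusted over 27). The 14 include RORE, RevDR2, the pair counted together and the receptor hexamer, which overlap one another, and the NFI motif in both its forms. The NFI core TTGGCA led by share and by p: 581 members (11.8%) held it, against 242 (4.9%) to the left and 250 (5.06%) to the right (adjusted exact p = 1.54e-34). The core rose at the centre of other sets too. It was at 13.3% of centres and 5.15% of left flanks for sites with a liver border, and at 13.7 and 4.5% for distal sites shared with eWAT. For eWAT-alone sites it was at 14.1 and 5.03%. The NFI palindrome was at 48 members, against 8 to the left and 15 to the right (adjusted exact p = 1.81e-07). With either form, 623 members (12.6%) had an NFI motif. The CTCF motif, bound by the insulator protein of that name, was at 96 members, against 22 to the left and 23 to the right (adjusted exact p = 1.78e-11). As a ratio of centre to left flank, the NFI core stood at 2.4, below CTCF (4.36), the NFI palindrome (6), RFX (6.25) and the receptor element (26.5). The motifs with higher ratios had few left flanks with a match, from 2 for the element to 22 for CTCF.

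Clock motifs and motifs of neural factors followed at lower shares. The receptor hexamer AGGTCA was at 442 members (8.95%), against 287 (5.81%) to the left and 345 (6.98%) to the right (adjusted exact p = 8.48e-09), and RORE matches contain it. The D-box (TTACATAA, TTACGTAA, TTATATAA or TTATGTAA), bound by the clock factors DBP, TEF, HLF and NFIL3, was at 82, against 35 and 39 (adjusted exact p = 5.57e-05). The E-box CACGTG, bound by BMAL1 and CLOCK, was at 118, against 64 and 70 (adjusted exact p = 0.000208), but this difference did not pass among members scoring above the list median (adjusted exact p = 0.245) or with a GC content of 45 to 55% (adjusted exact p = 0.206). SOX motifs (CCATTGT) were at 108 members, against 63 and 60 (adjusted exact p = 0.00139). The RFX motif was at 25, against 4 and 8 (adjusted exact p = 0.000255), and the POU octamer ATGCAAAT at 42, against 19 and 31 (adjusted exact p = 0.00923). AP-1 (TGACTCA or TGAGTCA), the FOS/JUN site, was at 128, against 72 and 84 (adjusted exact p = 0.000208, and 0.235 above the list median), and the GC box GGGCGG of SP and KLF factors at 200, against 85 and 111 (adjusted exact p = 2.46e-11). Over all brain peaks, promoters included, the NFI core was at 9.32%, the hexamer at 8.35%, CTCF at 2.27%, the D-box at 1.48%, SOX at 1.44%, AP-1 at 2.2%, and RFX and the octamer at 0.59% each. The E-box (2.39% of members, 6.16% of all brain peaks) and the GC box (4.05 and 15.1%) stood lower in members. With a 25 bp window 8 motifs passed in place of 14. SOX (adjusted exact p = 0.934), the D-box (0.173), RFX (0.132), AP-1 (0.257), the octamer (0.0869) and RevDR2 taken alone (1) then did not. Against the right flank neither the octamer (adjusted exact p = 0.422) nor RevDR2 alone (0.347) passed. Among members scoring above the list median the octamer (adjusted exact p = 0.552) and RevDR2 alone (0.482) did not pass, and with a GC content of 45 to 55% the octamer (0.123), RFX (0.206) and RevDR2 alone (0.211) did not.

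**Figure D2:**
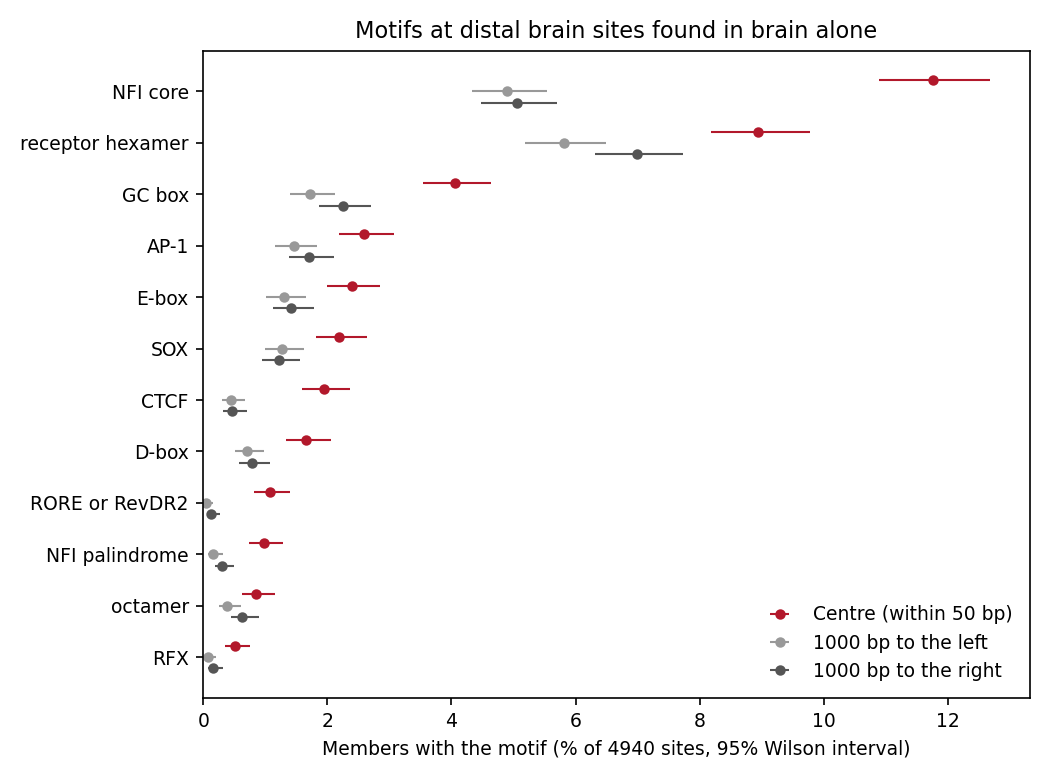
Percentage of the 4940 members with each motif at the centre and 1000 bp to either side, with 95% Wilson intervals, for the motifs that differed from the left flank. RORE and RevDR2 are drawn together. The NFI core stands at 11.8% against 4.9 and 5.06%, and the pair of Rev-erbα elements at 1.07% against 0.0405 and 0.121%.

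For other motifs the difference did not pass. C/EBP motifs (TTGCGCAA, TTGCACAA, TTGTGCAA, TTGCATCA or TTGTGAAA) were at 52 members, against 50 and 52 in the flanks (exact McNemar test, adjusted exact p = 0.995). The proneural E-box CAGATGG was at 139, against 116 and 130 (adjusted exact p = 0.256), and MEF2 motifs, bound by activity-regulated factors of neurons, at 16, against 13 and 11 (adjusted exact p = 0.835). The forkhead motif TGTTTAC was at 67, against 76 and 76, and the homeobox motif CTAATTA at 46, against 55 and 42 (adjusted exact p = 0.618 and 0.575). Neither the DR4 repeat nor RE1, the element of the neuronal repressor REST, matched any member's centre. In all, 4307 members (87.2%) held none of the receptor hexamer, RORE, RevDR2, E-box and D-box within 50 bp of the centre. The share was 78.6% of sites with a liver border, 62.9% of distal sites shared with eWAT and 80.5% of eWAT-alone sites. It was not computed for the flanks, where each of these motifs was less frequent to the left than at the members' centres.

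The centres were also richer in G and C than their surroundings, with a median GC content of 50.7% in the peak, against 46.3% in the flanks. Among all 2080 words of 6 letters (a word and its reverse complement counted as 1), an analysis added after the motif shares were seen, 477 (22.9%) were more frequent at the centre than to the left and 491 (23.6%) less frequent (exact McNemar test, adjusted over 2080). Of the 477, 385 had 4 or more G or C letters, and of the 491, 389 had 2 or fewer. The leading word, CTTGGC, overlaps the NFI core and was at 710 members (14.4%), against 274 (5.55%) to the left (adjusted exact p = 7.81e-46). It was followed by CAGCAG (923 against 479) and CTGGCA (751 against 350), and TTGGCA itself came next.

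**Figure D3:**
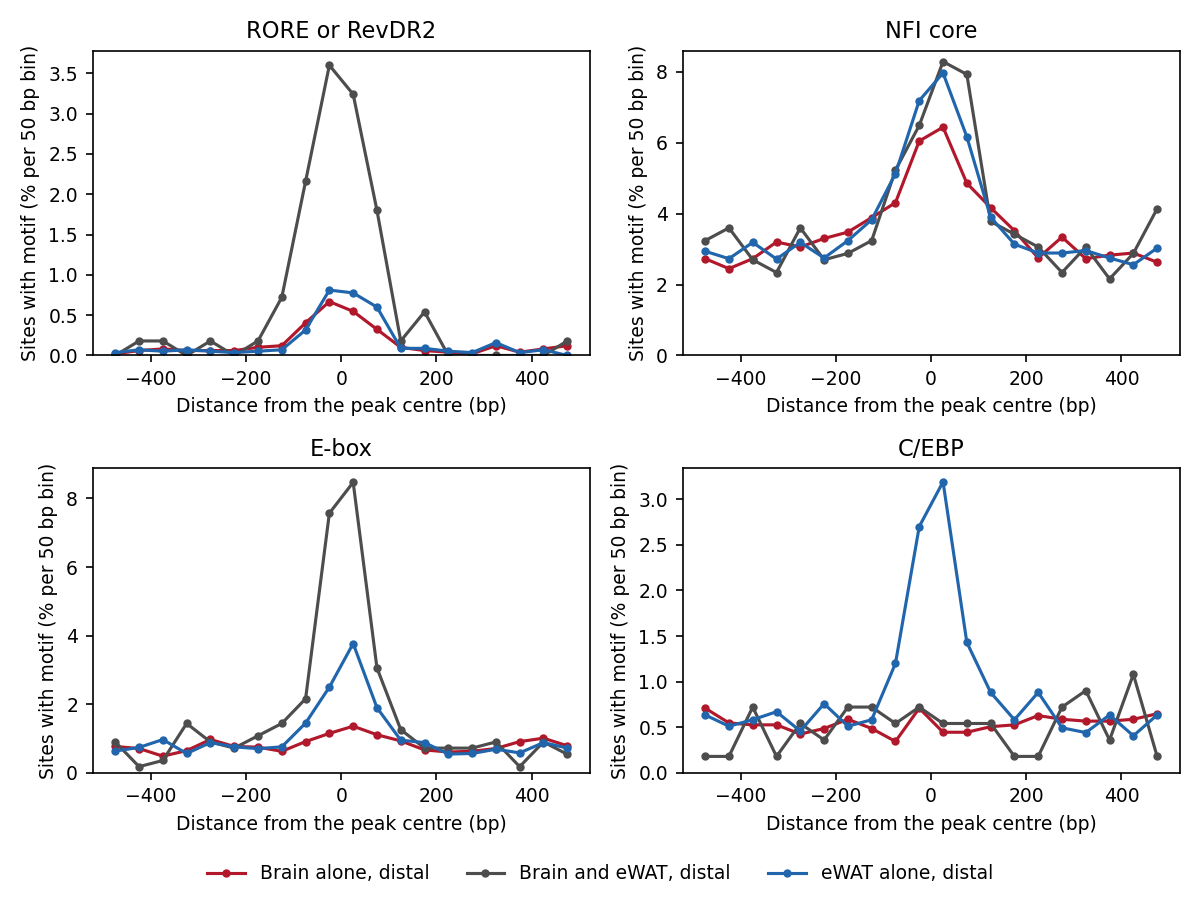
Percentage of sites with a motif in each 50 bp bin up to 500 bp on either side of the peak centre, for members (red), distal brain sites shared with eWAT (grey) and distal eWAT sites found in eWAT alone (blue). At members the NFI core rises to 6.05 and 6.44% in the 2 central bins and the C/EBP motif shows no central peak, with 0.709 and 0.445% there.

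Against distal brain sites that eWAT shared, members held the receptor element and the E-box less often. The shared sites were taken whether or not a liver border lay near, so they can differ from members in the border as well as in eWAT overlap. A RORE or RevDR2 was at 53 of 4940 members (1.07%), against 33 of 555 shared sites (5.95%; Fisher's exact test, two-sided, odds ratio 0.172, adjusted exact p = 1.93e-11). The E-box was at 2.39% of members, against 14.4% of shared sites (odds ratio 0.145, adjusted exact p = 3.22e-29), and the receptor hexamer at 8.95%, against 22% (odds ratio 0.349, adjusted exact p = 7.51e-17). RORE alone (0.931 against 3.78%) and RevDR2 alone (0.142 against 2.52%) each passed too, while the D-box did not (1.66 against 1.98%, adjusted exact p = 0.862). The sixth motif to pass was RE1, with 0 members against 2 shared sites (adjusted exact p = 0.0458), a call that ended with a 25 bp window (0.39) and among sites above the list median (0.139). In this comparison, added after the shares were seen, 6 of 27 motifs (22.2%) were less frequent in members and 0 (0%) more frequent, with 1 at an unadjusted p below 0.05, SOX (2.19 against 0.901%, adjusted exact p = 0.154). SOX passed among sites above the list median (adjusted exact p = 0.0354) and with a 75 bp window (0.0498). The NFI core did not pass (11.8 against 13.7%, adjusted exact p = 0.466), though it did with a 75 bp window (-4.57 percentage points, members minus shared sites, adjusted exact p = 0.0331). Members scored lower than shared sites, so the element was also read within ranges of score: at 21.8 to 25.5 it was at 0.811% of 2837 members and 3.36% of 149 shared sites, and at 58.2 to 90.9 at 3.85% of 130 and 7.5% of 80.

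Against distal brain sites that had a liver border, members had fewer E-boxes, GC boxes and CTCF motifs, while the receptor element was not called different. The element was at 1.07% of members (95% Wilson interval 0.821 to 1.4) and 1.31% of the 1145 sites with a border (0.795 to 2.15; Fisher's exact test, odds ratio 0.817, adjusted exact p = 0.736). Of the 27 motifs, 8 (29.6%) were less frequent in members and 0 (0%) more frequent, with 1 at an unadjusted p below 0.05, the octamer (0.85 against 0.262%, adjusted exact p = 0.0848). The E-box was at 2.39% of members, against 8.12% (odds ratio 0.277, adjusted exact p = 1.82e-16). The GC box was at 4.05%, against 10.2% (adjusted exact p = 7.56e-14), and CTCF motifs at 1.94%, against 4.89% (adjusted exact p = 1.04e-06). CREB sites (TGACGTCA), ETS sites (CCGGAAG), NRF1, the receptor hexamer and the forkhead motif were the other 5, and none of these passed with a GC content of 45 to 55% or with borders at a deposited p-value of at most 0.01. GC content differed as well, with a median of 50.7% in members and 55.3% in sites with a border. Among sites with a GC content of 45 to 55%, CTCF alone of the 27 passed (adjusted exact p = 0.000236), while the E-box (adjusted exact p = 0.0694) and GC box (0.975) did not. With those borders, the E-box and CTCF passed, 2 of 27, and the GC box did not (adjusted exact p = 0.0963).

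The closest counterpart in fat was the set of 5671 distal eWAT peaks found in eWAT alone by the same rule. The receptor element was at 1.07% of members, against 1.53% of these (Fisher's exact test, odds ratio 0.696, adjusted exact p = 0.0953). With an overlap of at least 75 bp in place of 1 bp the difference passed (adjusted exact p = 0.0384). The C/EBP motif, whose factors direct fat cell differentiation, was at 52 members (1.05%), against 306 eWAT sites (5.4%; odds ratio 0.187, adjusted exact p = 3.12e-37). The E-box was at 2.39%, against 5.96% (odds ratio 0.386, adjusted exact p = 6.25e-19), and the receptor hexamer at 8.95%, against 12.8% (odds ratio 0.671, adjusted exact p = 2.72e-09). AP-1 (2.59 against 4.25%), CTCF (1.94 against 3.63%), RevDR2 (0.142 against 0.388%) and the NFI core (11.8 against 14.1%) were the other motifs less frequent in members, 7 of 27 in all (25.9%). Of these, RevDR2 did not pass with the starts of all genes (adjusted exact p = 0.0649) or above the list median (0.138), where CTCF (0.241) did not pass either and the NFI core had the opposite sign (0.698 percentage points, adjusted exact p = 0.819).

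The motifs more frequent in members than in eWAT-alone sites were 5 of 27 (18.5%). SOX motifs were at 108 members (2.19%), against 67 eWAT sites (1.18%; odds ratio 1.87, adjusted exact p = 0.000284), and the octamer at 42 (0.85%), against 13 (0.229%; odds ratio 3.73, adjusted exact p = 4.59e-05). RFX motifs were at 25 (0.506%), against 10 (0.176%; odds ratio 2.88, adjusted exact p = 0.0119). They were at 0.437% of distal brain sites with a liver border and 0.721% of those shared with eWAT, neither called different from members. The GC box (4.05 against 1.53%, adjusted exact p = 1.74e-14) and the KLF CACCC box (0.324 against 0.106%, adjusted exact p = 0.0468) were the others. The CACCC box call ended under several settings, such as starts of all genes (adjusted exact p = 0.0512) and a 75 bp window (0.198), and RFX did not pass with a 25 bp window (0.149). At eWAT-alone sites the SOX motif was no more frequent at the centre (1.18%) than to the left (1.55%) or right (1.27%).

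Base composition differed between these sets, with a median GC content of 50.7% in members and 47.3% in eWAT-alone sites. In all 4 ranges of GC content (below 45, 45 to 50, 50 to 55 and 55% or more) the C/EBP and E-box shares were lower and the SOX, octamer and RFX shares higher in members. The RFX counts were small, 2 to 9 members against 1 to 5 eWAT sites in a range, as were those of the octamer, 5 to 15 against 1 to 8. For SOX the shares were 2.12 against 1.34%, 2.19 against 1.16%, 2.12 against 1.29% and 2.29 against 0.57%. The NFI core was lower in members in the first 3 ranges (8.4 against 14.2% in the lowest) and higher in the last (13.5 against 11.5%). Among sites with a GC content of 45 to 55%, C/EBP (adjusted exact p = 2.05e-10), the E-box (1.2e-14), CTCF (0.000236) and the octamer (0.000274) passed Fisher's exact test. SOX (adjusted exact p = 0.0668), RFX (0.225), the GC box (0.235), AP-1 (0.281), the CACCC box (0.624), RevDR2 (0.267), the NFI core and the receptor hexamer (both 0.0991) did not.

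**Figure D4:**
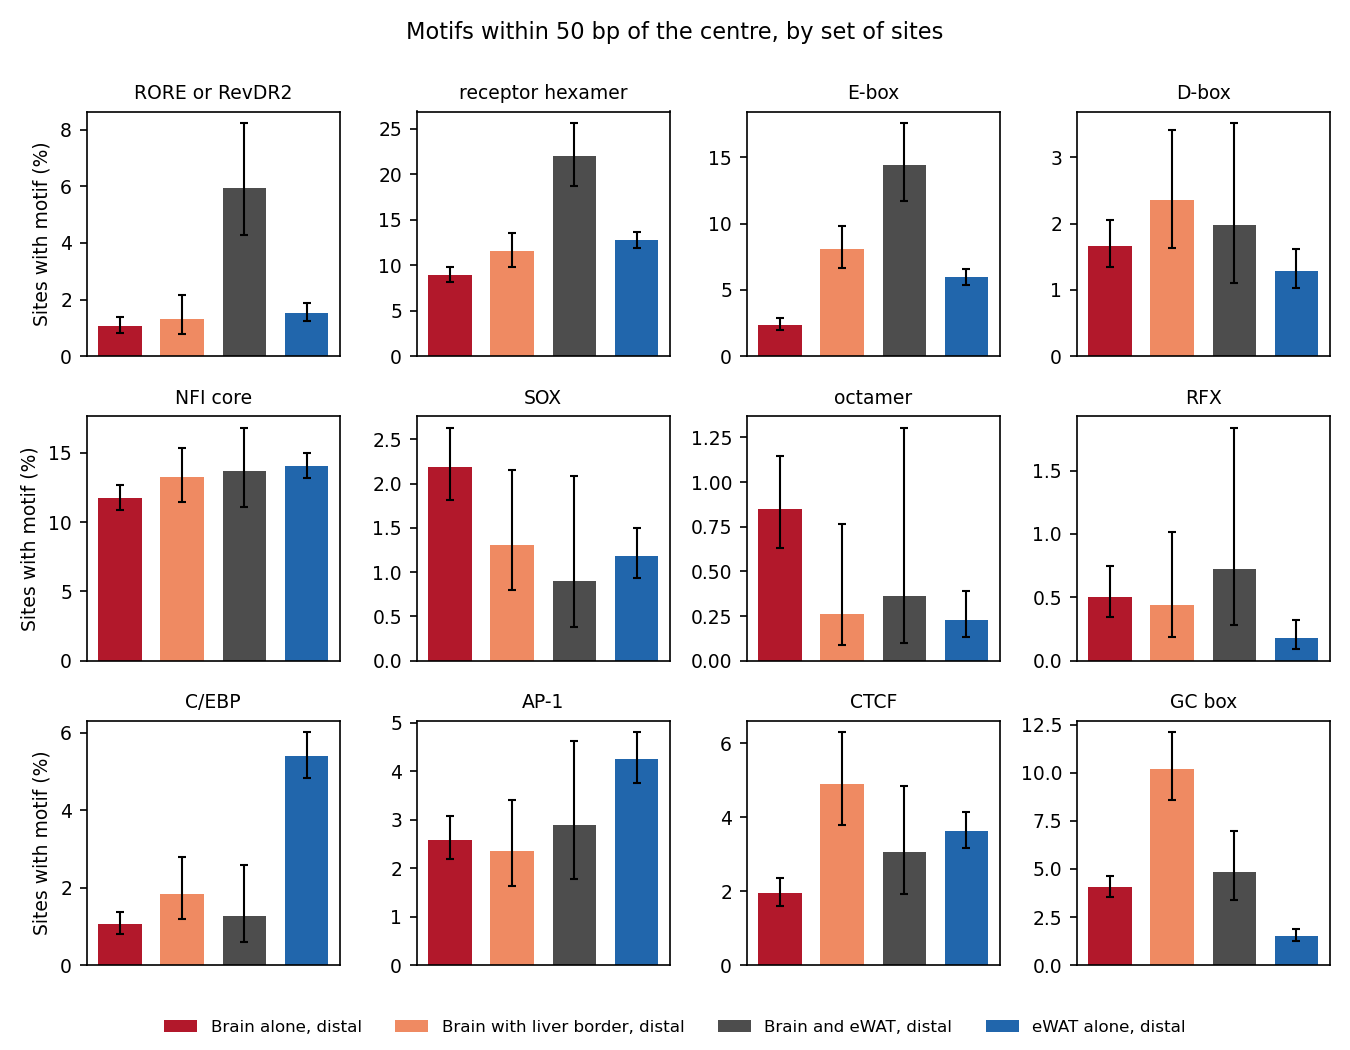
Percentage of sites with each of 12 motifs within 50 bp of the centre, with 95% Wilson intervals, in the 4940 members, 1145 distal brain sites with a liver border, 555 distal brain sites shared with eWAT and 5671 distal eWAT-alone sites, left to right. The RORE or RevDR2 and the E-box stand highest in the shared sites (5.95 and 14.4%), C/EBP in eWAT-alone sites (5.4%), and SOX and the octamer in members (2.19 and 0.85%).

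Words of 6 letters were compared in the same way. Of 2080, 402 (19.3%) were more frequent in members than in eWAT-alone sites and 425 (20.4%) less frequent (Fisher's exact test, adjusted over 2080). The words less frequent in members were led by CACATG, at 294 members (5.95%), against 799 eWAT sites (14.1%; adjusted exact p = 2.06e-41). In members this word was below its left flank (8.83%). ATTGCA and TTGCAC, which overlap some of the C/EBP motifs, came next (2.71 against 8.94% and 2.69 against 7.23%). The words more frequent in members were led by CCCCTC (9.86 against 4.48%), and 322 of the 402 had 4 or more G or C letters.

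Members lay in introns more often than sites with a border or eWAT-alone sites, and a small share was CpG-rich. Intronic sites were 52.8% of members, against 45.3% of sites with a liver border (Fisher's exact test, adjusted over 9 comparisons, adjusted exact p = 8.76e-06) and 47.5% of eWAT-alone sites (adjusted exact p = 1.05e-07), and they were 53.7% of the 555 distal sites shared with eWAT. The difference from sites with a border did not pass with a GC content of 45 to 55% (adjusted exact p = 0.0777), nor did that from eWAT-alone sites above the list median (0.0502). CpG-rich sequence, with a GC content of at least 50% and an observed over expected CpG ratio of at least 0.6, made up 266 members (5.38%). It made up 21% of sites with a border (adjusted exact p = 1.51e-53), 1.83% of eWAT-alone sites (adjusted exact p = 3.59e-23) and 57.2% of the 1566 promoter sites found in brain alone. A start of a gene that is not protein-coding lay within 1 kb of 110 members (2.23%), against 6.03% of sites with a border (adjusted exact p = 7.96e-10) and 1.5% of eWAT-alone sites (adjusted exact p = 0.00583). With a GC content of 45 to 55%, the CpG-rich difference from eWAT-alone sites had the opposite sign (-0.0653 percentage points, adjusted exact p = 0.922), and the noncoding start differences from sites with a border (0.0539) and from eWAT-alone sites (0.653) did not pass. Above the list median the noncoding start difference from eWAT-alone sites did not pass either (adjusted exact p = 0.114). The most common kinds were processed transcripts (45) and lincRNAs (32).

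Neighbouring peaks were less common around members than around sites with a border. Another brain peak lay within 10 kb of 1263 members (25.6%), against 32.1% of sites with a border (adjusted exact p = 1.36e-05, Fisher's exact test) and, within the eWAT list, 21.1% of eWAT-alone sites (adjusted exact p = 9.34e-08). The brain list was the longer, with 10687 peaks against 9016 for eWAT, and whether its length raised the share was not tested. With borders at p of at most 0.01 the first difference had the opposite sign (1.85 percentage points, adjusted exact p = 0.449). With a distance of 5 kb from starts the second did not pass (adjusted exact p = 0.173). With a GC content of 45 to 55% neither passed (adjusted exact p = 0.238 and 0.132), and above the list median the first did not (0.15). For 41 members more than 10 other brain peaks lay within 100 kb. These are counted but named only as part of a gene's total.

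The 12 highest-scoring members lay at genes of several kinds. Besides the sites in Gabrb1 and Mmp2, rank 43 (score 160.0, chr16:35592062-35592211) lay in an intron of Sema5b, an axon guidance semaphorin. Rank 55 (141.8) lay in an intron of Crocc, which encodes a ciliary rootlet protein. Rank 58 (141.8, chr12:25925734-25925883) was intergenic, 144852 bp upstream of Id2, a repressor of bHLH factors. Ranks 70 and 71 (both 130.9) were an intergenic site upstream of the translation factor gene Eif5 and an exonic site of Elfn2, a postsynaptic adhesion gene. Ranks 81 and 85 (both 120.0) were upstream of Spon2 and within the overlapping gene bodies of Fgfr2 and Plekha1. Ranks 90, 92 and 94 (each 116.4) lay in introns of Slc6a6, the taurine transporter gene, and of Ntn1, the axon guidance cue netrin 1, and 339027 bp upstream of Kcnv1, a potassium channel subunit gene. Of the 12, the Gabrb1 site alone held any of the 27 motifs, the NFI core.

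Members were spread thinly over genes. They had 3218 nearest genes, which is 14.5% of the 22208 protein-coding symbols, and 2233 of these (69.4%) had 1 member, while 86 had 5 or more. Xylt1, which starts glycosaminoglycan chains of proteoglycans, had the most, 14, of which 13 lay in its own body. They scored 18.2 to 58.2 over 662210 bp, 10 lay in a dense stretch of peaks, 4 held the NFI core and 1 the receptor element. Pabpc6 and Zfp36l2 had 11 each, 0 of them in the gene's own body, and 2610203C20Rik had 10 intergenic ones. Msi2, a neural RNA-binding protein gene, had 10, all in its introns. Ncam1, the neural cell adhesion molecule, had 10, 7 of them in its body. Auts2, a neurodevelopmental gene, had 9 over 1249366 bp, with scores of 18.2 to 29.1.

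Among 16 lists of genes chosen for this tissue, members most often had astrocyte, neural transcription factor and neuronal genes as nearest genes. The share over all genes was 14.5%. Of 12 astrocyte genes, 8 (66.7%) were nearest to a member, and 4 (33.3%) to an eWAT-alone site. The best sites belonged to Aqp4, the water channel of astrocyte endfeet (score 47.3), Fgfr3 (47.3) and Sox9 (40, with an NFI core and an octamer, 1 of 7 members nearest to it). Of 30 neural transcription factor genes it was 18 (60%), against 14 (46.7%) for eWAT-alone sites. Sox2 (6 members, best score 61.8, 438779 bp away), Nfix, itself an NFI gene (50.9), and Rfx4 (40) led. Of 24 pan-neuronal genes it was 13 (54.2%), against 3 (12.5%). Map2, annotated as Mtap2 and encoding a dendrite protein, had an intronic member of rank 212 (score 87.3) with no exact match to a RORE or RevDR2, and Snap25 and Syn2, genes of the synaptic vesicle machinery, had one each at 43.6. No test was made on these lists, whose choice was not independent of earlier results.

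Long genes take up more sequence and can be the nearest gene to more sites, so counts of members per Mb of gene body are given as well. Over all genes 2.84 members lay per Mb of gene body. The value was 7.34 for pan-neuronal genes (22 members in their bodies) and 6.93 for astrocyte genes (3 members). It was 4.09 for neural transcription factors (28 members) and 7.73 for genes of GABA signalling (24 members). A value from few members, as for astrocyte genes, is imprecise. Of the GABA signalling genes, 6 of 20 (30%) were nearest to a member, against 2 (10%) for eWAT-alone sites. Gabbr2, a GABA-B receptor gene, had 9 members (best 61.8), and Slc6a11, a GABA transporter gene, had 3 (best 58.2, within that gene). For synaptic adhesion and axon guidance genes the share of nearest genes was high, 21 of 40 (52.5%), against 12 (30%) for eWAT-alone sites, while density was below that of all genes at 1.87 per Mb. Cntn4 (58.2), Cntn1 (40) and Robo2 (40) led that list. Glutamate receptor genes showed the same pair of values, 10 of 26 (38.5%, against 1 or 3.85% for eWAT-alone sites) and 1.29 per Mb, led by Grin2c (76.4, in an intron of Tmem104), Gria1 (65.4) and Grid1 (50.9).

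**Figure D5:**
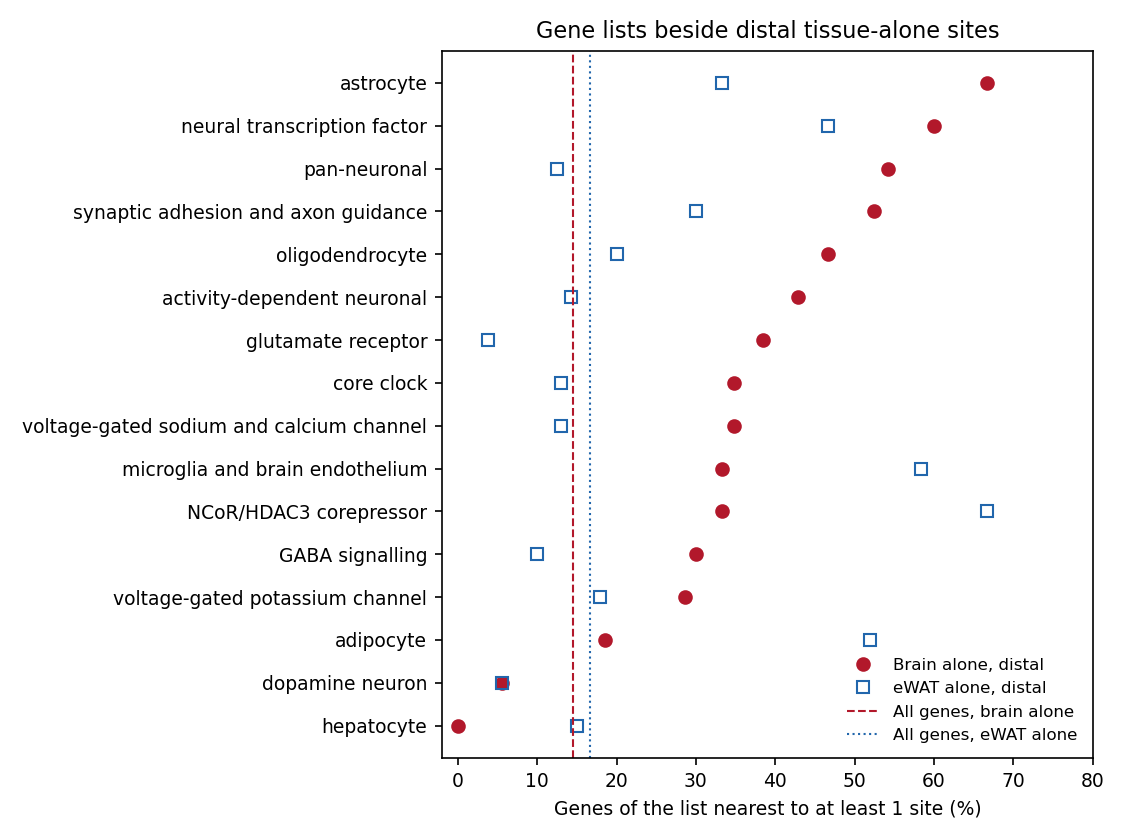
Percentage of each list's genes that are nearest to at least 1 member (red circles) or at least 1 distal eWAT-alone site (blue squares), with the percentages over all protein-coding genes as vertical lines (14.5 and 16.7%). Astrocyte genes stand highest for members (66.7%) and adipocyte genes stand at 18.5% for members and 51.9% for eWAT-alone sites.

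Other lists stood above the share of nearest genes over all genes too, though not all had more members per Mb of gene body than the 2.84 over all genes. Oligodendrocyte genes had 7 of 15 (46.7%), against 3 (20%) for eWAT-alone sites. Olig1 (5 members, best 58.2), Sox10 (32.7) and Mbp, myelin basic protein (29.1), were in front, and the 2.3 members per Mb came from 1 member. Genes induced by neuronal activity had 6 of 14 (42.9%), against 2 (14.3%), and 0 members in their bodies. Fosb (83.6), Fos (61.8) and Egr1 (50.9) each had an intergenic member upstream, and those of Fos and Egr1 held a D-box. Voltage-gated potassium channels had 8 of 28 (28.6%), against 5 (17.9%), led by Kcna2 (83.6, with an E-box), Kcnq3 (54.5) and Kcnd2 (29.1), with 3.32 per Mb. Voltage-gated sodium and calcium channels had 8 of 23 (34.8%), against 3 (13%), led by Cacna1c (36.4), Cacna1d (29.1) and Cacna1b (21.8), with 2.54 per Mb. Genes of microglia and brain endothelium had 4 of 12 (33.3%), against 7 (58.3%), with Pecam1 (32.7), Flt1 (25.5) and Slc2a1 (21.8). Their 7.28 per Mb came from 4 members, against 22 for the 7.34 of pan-neuronal genes.

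Dopamine neuron genes were not among the lists with many members. In this region of dopamine neurons, 1 of 18 (5.56%) was nearest to a member and 1 to an eWAT-alone site. The gene nearest to a member was the potassium channel gene Kcnj6 (score 25.5, rank 6758, intronic). The 1.06 members per Mb of gene body came from 1 member. The lists of sites do not show which cells of the tissue contributed. Of 23 core clock genes 8 (34.8%) were nearest to a member, against 3 (13%) for eWAT-alone sites, with 6.87 members per Mb (12 members). Cry2, a clock repressor, had an intronic member of score 94.5 (rank 165), Arntl, the gene of BMAL1, had 4 members with the best at 65.4 lying 154385 bp upstream, and Rora, a ROR gene, had 7 (best 43.6). None of these best sites held a RORE or RevDR2. Of 6 NCoR/HDAC3 corepressor genes, 2 were nearest to a member, against 4 for eWAT-alone sites, and Tbl1xr1 had 5 members (best 36.4). Adipocyte genes had 5 of 27 (18.5%), against 14 (51.9%), with Thrsp (43.6), Adipoq (21.8) and Cebpb (21.8). By other measures the adipocyte list stood further above all genes. A member lay within 50 kb of a start for 15 of 27 (55.6%), against 23.1% of all genes, and within 10 kb for 6 (22.2%), against 7.03%. The 5.97 members per Mb of gene body came from 5 members. For comparison, 50% of pan-neuronal and 66.7% of astrocyte genes had one within 50 kb, and 29.2 and 41.7% within 10 kb. Within 10 kb the share was 3.57% for potassium channels, 7.5% for synaptic adhesion and axon guidance and 8.7% for sodium and calcium channels. It was 0% for dopamine neuron genes and for microglia and brain endothelium. Glutamate receptor genes stood at 11.5%, oligodendrocyte at 13.3%, GABA signalling at 20%, neural transcription factor at 33.3% and activity-induced genes at 35.7%. Hepatocyte genes were nearest to 0 members (0 of 20), against 3 (15%) for eWAT-alone sites, and 2 of 20 (10%) had a member within 50 kb.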

How the data were processed

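Rev-erbα binding was represented by 1 peak list each for brain and eWAT and 1 list of liver ChIP-exo borders, all on mm9. The submitters' processing notes name mm9, Bowtie 0.12.8 (ChIP-seq), Bowtie 1.1.1 (ChIP-exo) and HOMER. The sources used here do not give peak and border settings, use of inputs or pooling. Each 150 bp peak carries the authors' deposited score, whose unit is not given. Scores fell on multiples of 3.636 in brain and 1.013 in eWAT and were compared within a list only. The lowest and median scores were 4 and 7 steps in brain and 10 and 14 steps in eWAT. What a step stands for is not given, and whether the lists differ in depth was not tested. Per the file headers, each deposited border has a signal, which was not compared, and a p-value, used as a filter in 1 alternative.

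Members were found by the rule given in the report, on the mm9 (NCBIM37) genome with the starts of 22350 protein-coding GENCODE vM1 genes. Members, lists and tests were chosen with earlier results of these data known. Consensus motifs (26, plus RORE or RevDR2 as 1) were sought in either orientation, in the 50 bp to each side of a centre and the same width 1000 bp away on either side. Motifs of 10 or more letters (RORE, RevDR2, DR1, DR4, NRF1, CTCF, the NFI palindrome, RFX, MEF2, RE1) are given by name. Exact McNemar tests (centre against left flank, adjusted over 27) and Fisher's exact tests (against sets, adjusted over 54, or over 27 for shared sites) were two-sided with Benjamini-Hochberg adjustment and a threshold of 0.05, and intervals are 95% Wilson intervals, which cover counting error only (Python 3.11.15, scipy 1.17.1). The search and tests were tested on simulated sites. All 338 list symbols matched, 3 by older symbols from RefSeq.

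Named sites were the 12 highest-scoring members, the 10 highest-scoring with a RORE or RevDR2, the 8 genes nearest to the most members and up to 3 genes per list, of which 2 are not reported here. Sites with over 10 brain peaks within 100 kb were counted only. A planned share of repeats was not run because the genome used is not soft-masked. The NFI sequences were added afterwards.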

Additional observations from a re-analysis of the deposited data

How the results depend on the processing

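No paired analysis was possible because each tissue has 1 list, and for the same reason no repeat without a replicate exists. Of 773 repeats of 59 tested results under other settings, 685 kept direction and side of the threshold, 74 no longer passed, 4 came to pass and 10 reversed. The planned repeat share and repeats without soft-masked sites were not run. Values below are members minus the other set, in percentage points, and for those that moved the cause was not tested.

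Above the list median, 1637 members remained in the set, 62 list genes were nearest to one (125 in the report's setting), and the element differed from sites with a border by 0.211 (reversed). The intron difference from eWAT-alone sites was 3.37, the noncoding start difference 0.756 and the neighbour difference from sites with a border -3.17, none of which passed. The NFI core reversed to 0.698 against eWAT-alone and 0.917 against shared sites, the CACCC box to -0.0673 against eWAT-alone sites and the proneural E-box to -0.305 against the left flank. With borders at p of at most 0.01, the neighbour difference reversed to 1.85 and the forkhead difference to 0.0951, and 2 motifs passed against sites with a border in place of 8. At 5 kb from starts, the neighbour difference from eWAT-alone sites was 1.23 (did not pass). With 75 bp of overlap, the element difference from eWAT-alone sites passed at -0.563. Within 25 bp of centres 8 motifs passed in place of 14, and the proneural E-box reversed to -0.223. With the right flank in place of the left the homeobox motif reversed to 0.081. By starts within 10 kb, 54 list genes had a member.

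Chosen after seeing the data, GC of 45 to 55% left 2323 members and 77 list genes, with 4 motifs passing against eWAT-alone sites (12 in the report's setting) and 1 against sites with a border. Against sites with a border the intron (5.28), noncoding start (-1.7) and neighbour (-3.01) differences did not pass, nor did the noncoding start (0.194) and neighbour (1.98) differences from eWAT-alone sites. There CpG-rich shares reversed to -0.0653. Leaving out sites whose central 32 bases recur in the genome ended 1 call, RevDR2 against eWAT-alone sites (-0.231). Depth is unknown, so absence from a list is not absence of binding.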
